A study of Mus musculus with 20 samples.

Results

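Iron handling was followed through 10 genes: Scara5, Tfrc, Slc11a1, Slc11a2, Slc40a1, Fth1, Ftl1, Hmox1, Cp and Steap4. They are 10 of the 52783 genes in the count table, and each was matched from its Ensembl identifier to its mouse symbol. Scara5 was selected on the difference between CD45+ cells of the 2 tumour types, so wherever its CD45+ values enter they are given as a description with no test, and it is counted only in the comparison of CD45- cells, which leaves 9 members in the others. The CD45- cells come from the same tumours, so that comparison may not be independent of the selection of Scara5. The other 9 genes were chosen by their role in iron handling, with earlier results of these libraries known.

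The libraries came from primary mammary tumours of the 4T1 mouse model, grown from 66cl4 cells, a line whose tumours metastasise to the lungs, or from 67NR cells, a line whose tumours do not. Female BALB/cJ mice, 8 to 12 weeks old and immunocompetent, received 1000000 cells of 1 line in a mammary fat pad, and tumours were taken 21 to 26 days later. Each tumour was dissociated and sorted on CD45, the surface protein of white blood cells, into CD45+ cells, the immune cells, and CD45- cells, so that the CD45- libraries held cancer cells together with the non-immune cells of the host. There were 5 animals per tumour type, 20 libraries in 4 groups of 5, and no library from a healthy mouse was used here. Each tumour type rests on 1 cell line, so what differs between the lines in general cannot be told apart from what goes with metastasis.

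Animal cells take up iron mainly bound to transferrin, through the transferrin receptor Tfrc, and move it out of endosomes through the divalent metal transporters of the Slc11a family. Ferritin, a shell of heavy (Fth1) and light (Ftl1) chains, stores it, and ferroportin (Slc40a1) is the known route of iron out of the cell. Macrophages that break down red cells recycle haem iron through haem oxygenase (Hmox1) and ferroportin. When a cell is short of iron, iron regulatory proteins bind a hairpin in the messenger RNA, the iron-responsive element: in the 5′ untranslated region it blocks translation, and in the 3′ untranslated region it protects the transcript from decay.

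The hairpins are shown because they divide the members into transcripts that this system stabilises, where it can change the RNA level, and transcripts whose translation it blocks, where RNA counts do not see it. A search for a C, 5 stem bases, the loop CAGTGN with its last base not G, and 5 bases pairing with the stem (G-U pairs allowed, transcript strand only) was run over the untranslated regions of GENCODE M21 transcripts on GRCm38. It matched the 5′ untranslated region of 3 of the 10 members, against 0.101% of 20890 protein-coding genes, and the 3′ untranslated region of 1, against 0.452% of 21691. The loop is in capitals in these 30-base windows, the first 3 from 5′ and the last 4 from 3′ untranslated regions, written as DNA.
Fth1, chr19:9982731-9982760, plus strand: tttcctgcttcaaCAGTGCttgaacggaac
Ftl1, chr7:45459779-45459808, minus strand: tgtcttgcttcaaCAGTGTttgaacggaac
Slc40a1, chr1:45925465-45925494, minus strand: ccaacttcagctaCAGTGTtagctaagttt
Tfrc, chr16:32631218-32631247, plus strand: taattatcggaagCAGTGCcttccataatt
Tfrc, chr16:32631597-32631626, plus strand: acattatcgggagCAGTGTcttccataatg
Tfrc, chr16:32631662-32631691, plus strand: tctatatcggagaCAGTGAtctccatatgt
Tfrc, chr16:32631709-32631738, plus strand: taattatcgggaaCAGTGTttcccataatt
The pattern was not found in the untranslated regions of the other members, which says only that these letters are not in those annotated transcripts, and a match is not a measured binding site. A hairpin with an unpaired base in this stem would be missed. The search therefore does not place the other members, Slc11a2 among them, outside this system.

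The libraries held 12960000 to 28080314 estimated counts. Levels are given as normalised counts, the rounded estimated counts divided by DESeq2 size factors over the 20 libraries, as mean ± SD with n = 5 animals. The gates were checked on Ptprc, the gene of CD45, which had 15890 to 28449 normalised counts in the CD45+ libraries and 10.6 to 473 in the CD45- libraries. In 66cl4 animals 5 and 6 the cell type recorded for each library goes against its title, and the title was used. Grouped by title, with animals 5 and 6 included, the 66cl4 libraries had 17697 to 20867 normalised counts of Ptprc in CD45+ cells. In CD45- cells they had 10.6 to 161. All 8 fibroblast markers were detected in CD45+ cells, with a median level of 7.75% of that in CD45- cells in 66cl4 and 11.0% in 67NR tumours. For the 7 epithelial markers this median was 35.9% in 66cl4 (5.09% to 1893%) and 11.7% in 67NR tumours (0 to 690%). The 31 immune markers had median levels in CD45- cells of 0.493% and 2.29% of those in CD45+ cells. Red cell markers summed to 5322 normalised counts in the CD45- library of 66cl4 animal 3 and 4810 in that of 67NR animal 1, and to at most 956 in any other library.

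**Figure D1:**
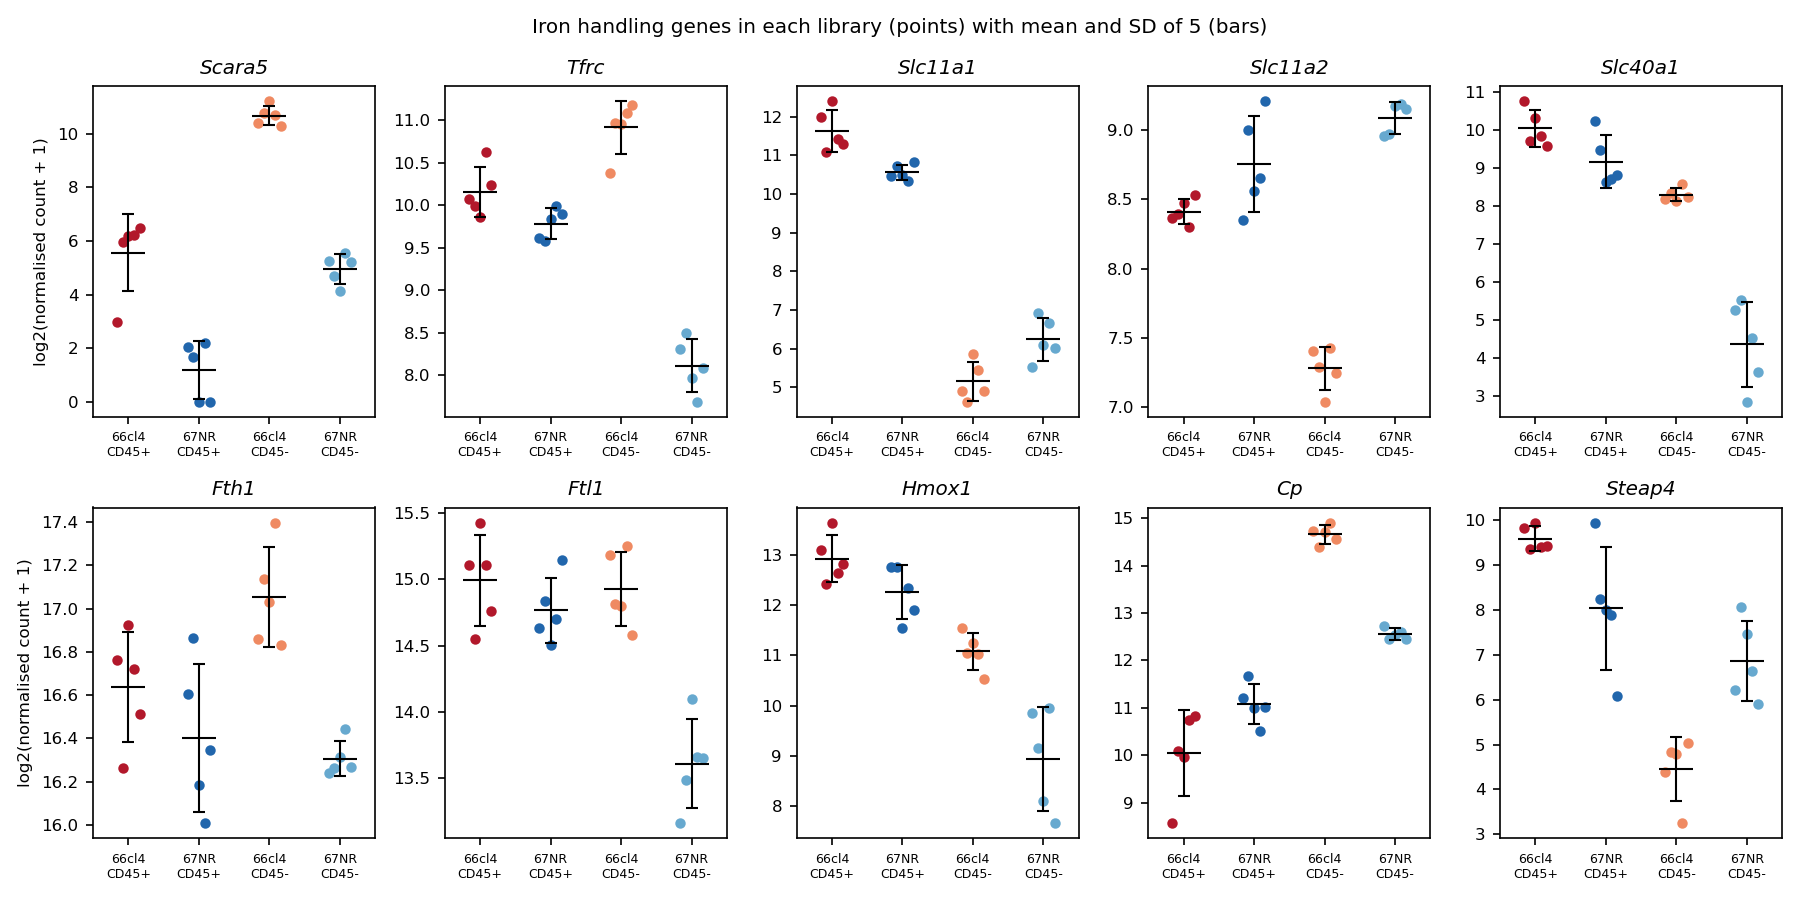
Each panel plots 1 gene, with log2(normalised count + 1) on the vertical axis and the 4 groups on the horizontal axis; points are single libraries and bars the mean with its SD (n = 5). Scara5, Tfrc and Slc40a1 sit higher in 66cl4 than in 67NR CD45- cells with no overlap, and 1 of the 67NR CD45+ libraries of Steap4 (985 normalised counts) lies apart from the other 4 of its group.

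Between the CD45- cells of the tumour types, 9 of the 10 iron genes differed at an edgeR adjusted p under 0.05 and more than a 2-fold change, 6 higher and 3 lower in 66cl4. Over all 14844 genes tested, 32.2% passed this rule, 13.2% higher and 18.9% lower in 66cl4. Transferrin receptor, ferroportin, ferritin light chain, haem oxygenase, ceruloplasmin and the ferritin receptor Scara5 were higher in 66cl4 CD45- cells, while the metal transporters Slc11a1 and Slc11a2 and the metalloreductase Steap4 were lower. The groups did not overlap for 9 members, or for 8 when Scara5 is left out, against 52.9% of all genes tested. The median log2 fold change of the members, Scara5 included, was 1.64, and that of all genes tested was -0.01.

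Scara5 (ENSMUSG00000022032, chr14:65666403-65764826), which encodes a scavenger receptor that takes up ferritin, was at 1339, 1754, 2386, 1645 and 1264 normalised counts in the CD45- libraries of 66cl4 animals 3 to 7. In 67NR CD45- cells it was at 36.9, 24.8, 16.7, 46.1 and 35.8. The lowest 66cl4 library was far above the highest 67NR library. The means were 1678 ± 446 and 32.0 ± 11.4, a log2 fold change of 5.74 (standard error, SE, of 0.26; edgeR adjusted p = 1.4e-09). In CD45+ cells it was at 6.95, 61.2, 71.4, 73.7 and 88.7 normalised counts in 66cl4 and at 3.12, 2.20, 0, 3.60 and 0 in 67NR. The 66cl4 CD45+ library of animal 3 was close to the 67NR libraries and the other 4 were not. Summed over libraries there were 318 counts against 7 (a ratio of 39.9 after scaling for depth). Without animals 5 and 6 the ratio was 36.6. In the CD45+ cells of 66cl4 tumours its mean was 3.60% of that in CD45- cells, below the lowest of the 8 fibroblast markers (4.03%), and in 67NR tumours it was 5.57%, where the lowest fibroblast marker was at 5.41%. In the CD45+ libraries of 66cl4 animals 3 to 7 the fibroblast markers summed to 182, 576, 455, 575.5 and 1398 normalised counts. The epithelial markers summed to 623, 773, 794.5, 730 and 958 there. Like Scara5, both sums were lowest in animal 3 and highest in animal 7. The part of carry-over between the gates in the CD45+ values was not tested. With carry-over, the CD45- comparison would not be independent of the selection of Scara5.

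Tfrc (ENSMUSG00000022797, chr16:32608920-32632794) carries the 4 hairpins of the 3′ untranslated region printed above. It had 1331, 2008, 1987, 2171 and 2312 normalised counts in the CD45- libraries of 66cl4 animals 3 to 7 and 316, 361, 249, 205 and 270 in those of 67NR. All 66cl4 libraries were above all 67NR libraries, with a log2 fold change of 2.84 (SE 0.17, edgeR adjusted p = 7.33e-09). In CD45+ cells the libraries ranged from 931 to 1579 in 66cl4 and from 765 to 1017 in 67NR. These ranges overlapped, and the log2 fold change of 0.41 (SE 0.15) did not pass the test (edgeR adjusted p = 0.067). The tumour effect was smaller in CD45+ than in CD45- cells, a difference of -2.42 on the log2 scale (SE 0.24, edgeR interaction adjusted p = 1.37e-07).

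Slc40a1 (ENSMUSG00000025993, chr1:45908068-45926523), ferroportin, whose transcript holds a hairpin in the 5′ untranslated region, had 291, 323, 279, 379 and 302 normalised counts in 66cl4 CD45- cells and 36.9, 45.0, 6.15, 21.9 and 11.3 in 67NR CD45- cells. The lowest 66cl4 library was above the highest 67NR library, and the log2 fold change was 3.70 (SE 0.38, edgeR adjusted p = 3.26e-06). Of the 7 macrophage markers tested in these libraries 3 were lower in 66cl4 and 0 higher, and the range of their summed normalised counts, 157 to 1901 in 66cl4, overlapped with that of 67NR, 1251 to 4427. The part of macrophages in the Slc40a1 values was not tested. In CD45+ cells Slc40a1 had 1727, 836, 1256, 916 and 762 normalised counts in 66cl4 and 1210, 703, 393, 412 and 444 in 67NR. Animal 1 of 67NR lay within the 66cl4 range and the other 4 below it. The log2 fold change was 0.79 (SE 0.36, edgeR adjusted p = 0.142), and it was 1.17 (edgeR adjusted p = 0.0127) without that library. The tumour effect differed between the gates by -2.88 on the log2 scale (SE 0.53, edgeR interaction adjusted p = 0.000245).

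The ferritin chains were the members with the highest levels. Fth1 (ENSMUSG00000024661, chr19:9980598-9985098) had 137408 ± 22760 normalised counts in 66cl4 and 81144 ± 4722 in 67NR CD45- cells. The groups did not overlap, yet the log2 fold change of 0.79 (SE 0.13, edgeR adjusted p = 7.09e-05) was under the 2-fold limit, and Fth1 was the member not called. Ftl1 (ENSMUSG00000050708, chr7:45457944-45459884) had 37243, 28793, 28571, 38951 and 24536 normalised counts in 66cl4 and 9128, 11462, 17464, 12927 and 12843 in 67NR CD45- cells. All 66cl4 libraries were higher, by a log2 fold change of 1.34 (SE 0.17, edgeR adjusted p = 1.12e-05). In CD45+ cells the tumour types overlapped for both chains, with log2 fold changes of 0.23 for Fth1 (edgeR adjusted p = 0.457) and 0.26 for Ftl1 (edgeR adjusted p = 0.329). The difference between gates was -1.08 for Ftl1 (SE 0.26, edgeR interaction adjusted p = 0.00255) and -0.55 for Fth1 (SE 0.22, edgeR interaction adjusted p = 0.0514). The Fth1 value lay at the threshold: it passed with DESeq2 (adjusted p = 0.0401), and in 12 of the 20 edgeR fits that left out 1 library (-0.57 to -0.73, edgeR interaction adjusted p 0.0175 to 0.0486). Ferritin genes have processed copies in the mouse genome, and the copies named in the table held at most 23 counts in any library, or 0.151% of their parent gene, so how reads were split between near-identical copies is uncertain but few were assigned to the copies.

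Hmox1 (ENSMUSG00000005413, chr8:75093621-75100589), the inducible enzyme that frees iron from haem, had 2994, 2130, 2440, 2086 and 1483 normalised counts in 66cl4 and 930, 572, 273, 989 and 202 in 67NR CD45- cells. The groups did not overlap, although the 67NR libraries spread widely, and the log2 fold change was 1.94 (SE 0.44, edgeR adjusted p = 0.00334). In CD45+ cells its 66cl4 libraries lay between 5444 and 12785 and its 67NR libraries between 2973 and 6957, a log2 fold change of 0.66 (SE 0.28, edgeR adjusted p = 0.124). The difference between gates was -1.26 (SE 0.52, edgeR interaction adjusted p = 0.0558). With the animal as a block, which pairs the gates of 1 tumour, it was -1.47 and passed (edgeR interaction adjusted p = 0.00436), and it passed with DESeq2 too (-1.24, adjusted p = 0.0353). Leaving out 1 library gave -1.59 to -1.10, and 5 of these 20 edgeR fits passed.

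Cp (ENSMUSG00000003617, chr3:19957054-20009145), ceruloplasmin, is the copper oxidase that prepares exported iron for transferrin. It had 27260, 21436, 26713, 30857 and 24203 normalised counts in 66cl4 and 6829, 5588, 5982, 6198 and 5573 in 67NR CD45- cells. All 66cl4 libraries were above all 67NR libraries, and the log2 fold change was 2.14 (SE 0.11, edgeR adjusted p = 1.06e-09). In CD45+ cells the values were 377, 1089, 1002, 1723 and 1813 in 66cl4 and 2379, 3256, 2047, 1455 and 2080 in 67NR. They overlapped, with a log2 fold change of -0.89 (SE 0.37) that did not pass the test (edgeR adjusted p = 0.115). Its difference between gates, -3.02 (SE 0.41, edgeR interaction adjusted p = 9.61e-06), was the largest decrease among the members. Fibroblast markers were lower in 66cl4 in both gates, 4 of 8 in CD45+ and 5 of 8 in CD45- cells with 0 of 8 higher in each. In the CD45+ libraries they had sums between 182 and 1398 in 66cl4 and between 899 and 3761 in 67NR. In 66cl4 both Cp and these sums were lowest in animal 3 and highest in animal 7. In 67NR both were highest in animal 4, while Cp was lowest in animal 6 and the sums in animal 7. The part of fibroblasts in the Cp values of CD45+ cells was not tested.

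Slc11a2 (ENSMUSG00000023030, chr15:100387898-100425072), the divalent metal transporter DMT1 that moves iron out of endosomes, was lower in 66cl4 CD45- cells. It had 169, 156, 131, 171 and 151 normalised counts there and 495, 499, 574, 580 and 568 in 67NR CD45- cells. These were among the tightest groups of the members, and the log2 fold change was -1.78 (SE 0.10, edgeR adjusted p = 2.65e-09). In CD45+ cells its 66cl4 libraries lay between 315 and 368 and its 67NR libraries between 325 and 590, a log2 fold change of -0.36 (SE 0.15, edgeR adjusted p = 0.107). The difference between gates was 1.42 (SE 0.19, edgeR interaction adjusted p = 7.01e-06).

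Slc11a1 (ENSMUSG00000026177, chr1:74375195-74386062), also called NRAMP1, is the related transporter of the phagosome membrane of macrophages and neutrophils. In CD45+ cells it had 4077, 2178, 5426, 2740 and 2490 normalised counts in 66cl4 animals 3 to 7 and 1406, 1678, 1444, 1294 and 1806 in 67NR animals 1, 4, 5, 6 and 7. Every 66cl4 library was above every 67NR library, with the highest in animals 3 and 5. The log2 fold change was 1.16 (SE 0.23, edgeR adjusted p = 0.00402), and this was the 1 call among the 9 members tested between CD45+ cells. Over all 14676 genes, 11.8% were called, 5.01% higher and 6.82% lower, and the groups did not overlap for 15.1%. The median log2 fold change of the 9 members was 0.41, and that of all genes was 0.01. The call was lost without 66cl4 CD45+ animal 5 (log2 fold change 0.93, edgeR adjusted p = 0.00627) and without 66cl4 animals 5 and 6 (0.94, edgeR adjusted p = 0.0178), where the change fell under 2-fold. In CD45- cells Slc11a1 had 29.2, 23.7, 57.4, 42.5 and 29.0 normalised counts in 66cl4 and 44.8, 119, 67.6 and 63.4 in 67NR animals 1, 4, 5 and 7. The library of 67NR animal 6, with 128 counts before scaling, was the second highest of its group. The tumour types overlapped, with a log2 fold change of -1.09 (SE 0.30, edgeR adjusted p = 0.00525). The change fell under 2-fold without the CD45- library of 66cl4 animal 4 (-0.95), 67NR animal 4 (-0.90) or 67NR animal 6 (-0.99). The 3 general leukocyte markers had sums between 208 and 1001 in CD45- cells of 66cl4 and between 693 and 1592 in those of 67NR tumours, and 2 of the 3 were lower in 66cl4. Their part in the CD45- values of Slc11a1 was not tested. The tumour effect on Slc11a1 differed between the gates by 2.26 (SE 0.40, edgeR interaction adjusted p = 0.00016).

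Steap4 (ENSMUSG00000012428, chr5:7960457-7982213), a metalloreductase of iron and copper, had 904, 654, 981, 675 and 682 normalised counts in 66cl4 and 985, 303, 255, 235 and 66.9 in 67NR CD45+ cells. Animal 1 of 67NR had the highest value of all 10 libraries, and the other 4 of its group lay below every 66cl4 library. The log2 fold change was 1.07 (SE 0.55) and did not pass the test (edgeR adjusted p = 0.199). Without that library it was 1.85 (edgeR adjusted p = 0.00668). The 8 neutrophil markers summed to 52336, 27369, 16910, 15105 and 7186 normalised counts in the same 67NR libraries, the same order as for Steap4. In 66cl4 CD45+ cells they summed to 44201 to 125311, and of the 7 tested 5 were higher in 66cl4 and 0 lower. Slc11a1 did not follow that order in 67NR, where animal 7 had its highest value. In 66cl4 CD45+ cells Slc11a1 and the neutrophil sums were both highest in animal 5, followed by animals 3 and 6. Slc11a1 was lowest there in animal 4 and the sums in animal 7. Steap4 was also highest in animal 5, followed by animal 3, and lowest in animal 4. The part of the neutrophil content in either gene's tumour difference was not tested, and in bulk samples fewer cells of a type and less RNA per cell cannot be told apart. In CD45- cells Steap4 had 19.9, 27.4, 26.6, 8.50 and 31.9 normalised counts in 66cl4 and 73.7, 269, 175, 99.2 and 59.3 in 67NR, with no overlap. The log2 fold change was -2.51 (SE 0.45, edgeR adjusted p = 0.000339), and the difference between gates was 3.62 (SE 0.75, edgeR interaction adjusted p = 0.000761).

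In the test of the difference between gates, 7 of the 9 members passed at an edgeR interaction adjusted p under 0.05, against 43.1% of the 16453 genes tested. Tfrc, Slc40a1, Ftl1 and Cp had a lower tumour effect in CD45+ than in CD45- cells, and Slc11a1, Slc11a2 and Steap4 a higher one. Slc11a1 had called effects of opposite sign, higher in 66cl4 among CD45+ cells and lower among CD45- cells. Other cell types of the CD45- gate also differed between the tumour types. Of the endothelial markers 5 of 6 were lower in 66cl4 and 0 higher, and all 3 monocyte markers tested were lower. Of the 6 epithelial markers tested 2 were higher and 1 lower in 66cl4, with a median log2 fold change of 0.42, while the sum of the list lay between 6110 and 6868 normalised counts in CD45- cells of 66cl4 and between 143 and 533 in those of 67NR tumours. The part of these cell types in the CD45- differences was not tested.

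**Figure D2:**
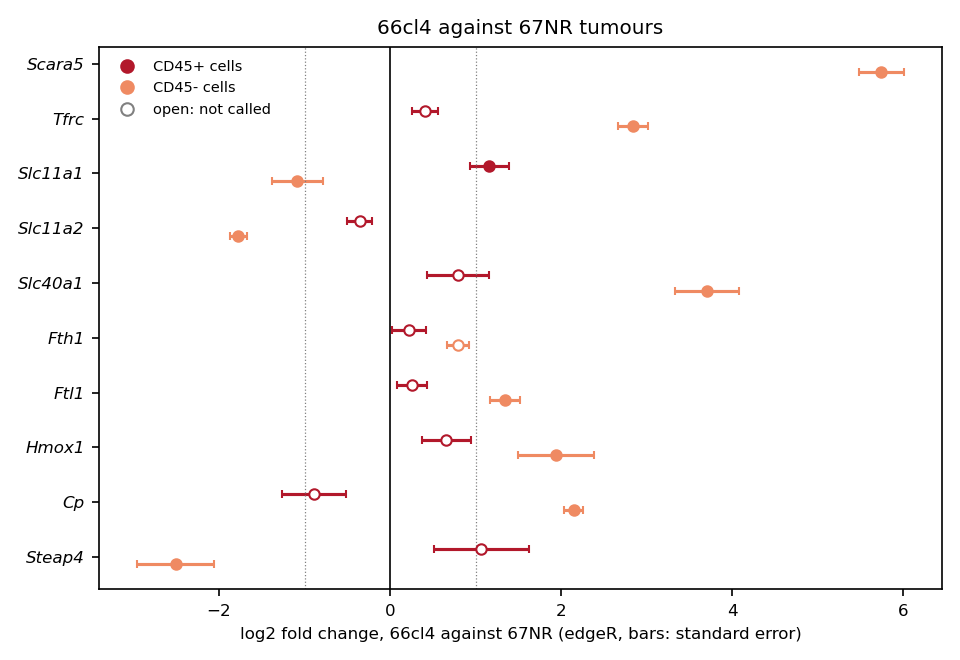
The log2 fold change of 66cl4 against 67NR is on the horizontal axis for each gene (rows), with bars for the standard error of the edgeR fit, in CD45+ (dark) and CD45- (light) cells; filled points were called and dotted lines mark a 2-fold change. In CD45- cells 9 points are filled and spread from -2.51 to 5.74, and in CD45+ cells only Slc11a1 is filled; Scara5 is not drawn for CD45+ cells.

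Between the gates of 66cl4 tumours, 6 of the 9 members other than Scara5 were called, of which 5 were higher and 1 lower in the CD45+ gate. Over the 14916 genes tested 44.4% were called, 23.9% higher and 20.5% lower. The groups did not overlap for 6 of the 9, against 61.4% of all genes. Slc11a1 was higher in CD45+ cells by 6.50 on the log2 scale (SE 0.35, edgeR adjusted p = 1.6e-08), and Steap4 by 5.02 (SE 0.26, edgeR adjusted p = 6.73e-09). The level of these genes in CD45- cells was 1.07% and 2.94% of that in CD45+ cells, where the 31 immune markers ran from 0 to 7.49%. The part of immune cells in these CD45- values was not tested. Hmox1 (1.84, SE 0.24), Slc40a1 (1.77, SE 0.21) and Slc11a2 (1.10, SE 0.11) were also higher, with edgeR adjusted p-values of 2.01e-05, 6.16e-06 and 1.72e-06. Cp was lower (-4.46, SE 0.39, edgeR adjusted p = 6.9e-07). Cp in CD45+ cells was at 4.60% of its level in CD45- cells, within the range of the 8 fibroblast markers (4.03% to 122%). Tfrc was lower in the CD45+ library of all 5 animals, by a log2 fold change of -0.79 (edgeR adjusted p = 0.0011) that was under the 2-fold limit. Fth1 (-0.45, edgeR adjusted p = 0.0243) was under the limit too, and Ftl1 (0.04, SE 0.19, edgeR adjusted p = 0.845) did not pass the test.

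In 67NR tumours 6 of the 9 members were called between the gates as well, 5 higher and 1 lower in CD45+ cells, against 39.8% of 15063 genes, 20.2% higher and 19.6% lower. The groups of 6 members did not overlap, against 55.5% of all genes. Slc40a1 was higher in CD45+ cells by 4.68 on the log2 scale (SE 0.52, edgeR adjusted p = 1.26e-05), Slc11a1 by 4.26 (SE 0.24, edgeR adjusted p = 4.71e-08) and Hmox1 by 3.13 (SE 0.46, edgeR adjusted p = 0.000108). Tfrc was higher by 1.66 (SE 0.15, edgeR adjusted p = 2.27e-06), in all 5 animals, where in 66cl4 tumours it was lower in all 5. Ftl1 was higher by 1.14 (SE 0.17, edgeR adjusted p = 0.000126). Cp was lower (-1.42, SE 0.19, edgeR adjusted p = 5.15e-05). Cp in CD45+ cells was at 37.2% of its level in CD45- cells, within the range of the fibroblast markers there (5.41% to 46.9%). Steap4 had a higher value in the CD45+ library of all 5 animals, but its log2 fold change of 1.45 (SE 0.63) did not pass the test (edgeR adjusted p = 0.0612). It passed with DESeq2 (1.49, adjusted p = 0.0186) and with all 20 libraries in the fit (1.44, edgeR adjusted p = 0.016). Leaving out 1 library gave 0.67 to 1.84, and it passed without the CD45- library of animal 4 (1.84, edgeR adjusted p = 0.0304) or the CD45+ library of animal 7 (1.77, edgeR adjusted p = 0.0129). Slc11a2 (-0.31, edgeR adjusted p = 0.0912) and Fth1 (0.13, edgeR adjusted p = 0.503) did not pass it either. In 67NR CD45- cells Slc11a1 was at 5.18% and Steap4 at 36.6% of the level in CD45+ cells. The 31 immune markers ran from 0.637% to 35.4% there.

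**Figure D3:**
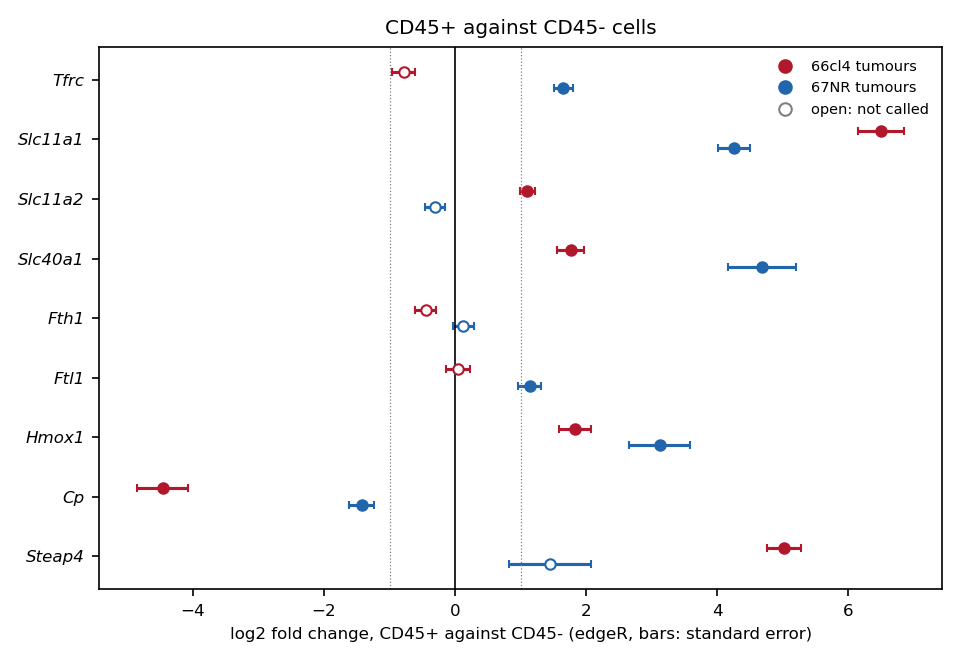
The log2 fold change of CD45+ against CD45- cells is on the horizontal axis for each gene (rows), with bars for the standard error of the edgeR fit, in 66cl4 (red) and 67NR (blue) tumours; filled points were called and dotted lines mark a 2-fold change. Scara5 is not drawn; Cp lies left of 0 and Slc11a1, Slc40a1 and Hmox1 right of 0 in both, while Tfrc is at -0.79 in 66cl4 and 1.66 in 67NR tumours.

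Levels of different genes were compared per transcript length, in TPM, counts per length scaled to 1 fixed total per library, computed from the counts and the median length of the gene's protein-coding transcripts. Fth1 was the highest member in all 4 groups, with a mean of 15935 TPM in 66cl4 CD45-, 11520 in 66cl4 CD45+, 9866 in 67NR CD45+ and 9286 in 67NR CD45- cells, and ranked 6, 6, 11 and 14 among all genes of the table. Ftl1 was second everywhere, and its libraries did not overlap with those of Fth1 or of the third member. The third was Hmox1 in CD45+ cells (344 ± 116 TPM in 66cl4 and 216 ± 69.0 in 67NR) and Cp in CD45- cells (498 ± 58.1 and 113 ± 9.53). In normalised counts Ftl1 (24536 to 38951) overlapped with Cp (21436 to 30857) in 66cl4 CD45- cells. Their separation there rests on the lengths used, 735.5 bases for Ftl1 and 3606 for Cp. Below the third member the order differed by group. In CD45+ cells Slc40a1 came next, overlapping with Hmox1 in both tumour types, and Scara5 was last with no overlap. In 66cl4 CD45- cells Hmox1 overlapped with Tfrc, Tfrc with Slc40a1 and Slc40a1 with Scara5, which had 32.9 ± 9.47 TPM, and Steap4 was last (0.507 ± 0.213). In 67NR CD45- cells Slc11a2 came next (51.5 ± 5.27), overlapping with Hmox1, Tfrc had 10.2 ± 2.58 and Scara5 was last (0.620 ± 0.238). The length used was 713.5 bases for Slc11a2 and 1569 for Hmox1. In normalised counts the mean of Slc11a2 there was 543 and that of Hmox1 593, so their order rests on these lengths.

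Ratios of TPM within a library set uptake against export and the chains of ferritin against each other. The ratio of Tfrc to Slc40a1 was 0.144 to 0.398 in CD45+ cells of 66cl4 and 0.149 to 0.570 in those of 67NR tumours, below every CD45- library, at 1.06 to 1.77 in 66cl4 and 1.85 to 9.37 in 67NR. The length used was 1860 bases for Tfrc and 429.5 for Slc40a1, so whether such a ratio is above or below 1, and the place of Slc40a1 among the other genes, rest on these lengths. In normalised counts, without lengths, Tfrc exceeded Slc40a1 in 3 of the 5 CD45+ libraries of 66cl4 and 4 of the 5 of 67NR tumours. The 67NR CD45- ratios were thus the highest although the TPM of Tfrc itself was lowest there. Slc40a1 had 7 to 60 counts before scaling in these libraries, and the ratio of 9.37 came from animal 5, with 7. Its mean normalised count there was 3.83% of that in CD45+ cells, where the 8 macrophage markers ran from 1.94% to 4.58%. The part of macrophages in these ratios was not tested. The ratio of Fth1 to Ftl1 was 3.89 ± 0.267 in 66cl4 CD45+, 3.97 ± 1.01 in 67NR CD45+, 5.49 ± 0.887 in 66cl4 CD45- and 8.21 ± 1.72 in 67NR CD45- cells. The ratio of Slc11a1 to Slc11a2 was 1.04 to 5.20 in the CD45+ libraries and at most 0.149 in every CD45- library. In normalised counts, without lengths, this ratio was 3.06 to 15.3 in the CD45+ libraries and at most 0.439 in the CD45- libraries. These ratios are a description and were not tested.

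**Figure D4:**
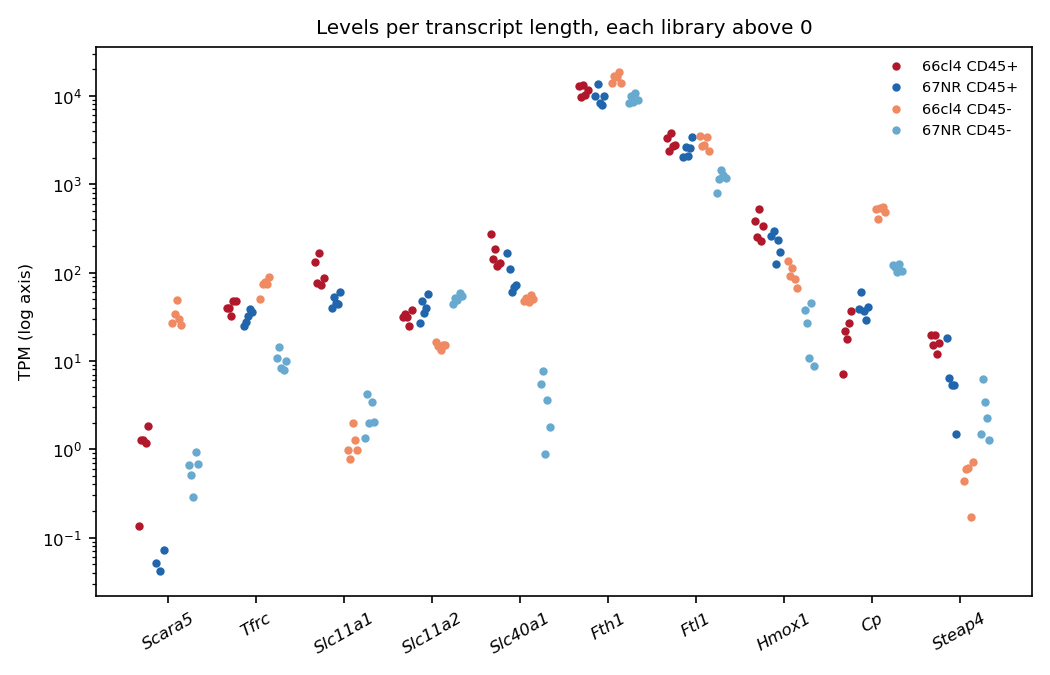
Each point is 1 library, with TPM on a log axis against the 10 genes and the 4 groups in colours; libraries at 0 (2 of Scara5 in 67NR CD45+ cells) are not drawn. Fth1 and Ftl1 stand above the other members in every group, and Scara5 spans from below 0.1 TPM in 67NR CD45+ to 48.8 TPM in 66cl4 CD45- cells.

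The 3 genes with the highest Pearson correlation of log2(normalised count + 1) over the 20 libraries are given for 9 of the members. The libraries share the gates and tumour types, so these values describe a common pattern over 4 groups. The nearest to Steap4 were Cxcr2 (0.956), the neutrophil chemokine receptor of the marker list, 2010005H15Rik (0.954) and Mgam (0.950). Slc11a1 was nearest to Gcnt1 (0.993), Ptafr (0.992) and Gpr35 (0.992), and Cp to Pck2 (0.983), Ica1 (0.981) and Serpinf1 (0.978). Slc40a1 and Hmox1 shared Eepd1 among their nearest genes (0.980 and 0.954). Of these 9 members Fth1 had the weakest matches, Hic2 (0.895), Map1lc3b (0.893) and Mrpl45 (0.851). The nearest genes were Gm44250, Mbtps2 and Trim13 for Tfrc (0.975 to 0.983), Dyrk1b, Zc3h7b and Dalrd3 for Slc11a2 (0.969 to 0.985) and Cmtm3, Agpat2 and Selenbp1 for Ftl1 (0.951 to 0.964).

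A wider list of 58 other iron and haem genes, none of them members, was read from the same fits. Between CD45- cells 13 of the 46 tested were called, 5 higher and 8 lower in 66cl4, against the 32.2% of all genes given above, with a median log2 fold change of 0.14. Hfe, which binds the transferrin receptor and is mutated in hereditary haemochromatosis, lay between 726 and 820 normalised counts in CD45- cells of 66cl4 tumours and between 67.5 and 143 in those of 67NR tumours (log2 fold change 3.04, edgeR adjusted p = 2.29e-09). The haem transporter Slc48a1 (2.34) and Bdh2, an enzyme linked to a mammalian siderophore (2.18), were also higher. The ferric reductase Cybrd1 (-2.89), the folate and haem carrier Slc46a1 (-2.55) and the exporter Abcg2 (-2.12) were lower. Between CD45+ cells 6 of 48 were called, 3 in each direction, against 11.8% of all genes, with a median of 0.05. The zinc and iron transporter Slc39a14 was higher in 66cl4 (1.09, edgeR adjusted p = 0.00165), and Cybrd1 (-2.08) and Slc46a1 (-1.01) were lower, as between CD45- cells. The change of Slc39a14 fell under 2-fold with the animal numbers as a block (0.94) and without 66cl4 CD45+ animal 3 (0.97) or 5 (0.98), and that of Slc46a1 without 66cl4 CD45+ animal 4 (-0.90), 67NR animal 4 (-0.96) or 67NR animal 7 (-0.93).

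Between the gates the wider list had 22 of 47 called in 66cl4 tumours, where the CD45+ gate was higher for 15 and lower for 7, and 15 of 47 in 67NR tumours, where it was higher for 9 and lower for 6. Over all genes the shares called were 44.4% and 39.8%. The medians were 0.07 and 0.21. Transferrin itself, Trf, had 3810 to 8637 normalised counts in CD45+ and 27.4 to 152 in CD45- cells of 66cl4 tumours, a log2 fold change of 6.35 (edgeR adjusted p = 2.28e-07). Haptoglobin, Hp, which binds free haemoglobin, and Cd163, the macrophage receptor for that complex, were higher in CD45+ cells by 6.12 and 5.51 in 66cl4 and by 4.98 and 4.89 in 67NR tumours. Hfe was higher in CD45+ cells of 67NR tumours by 4.20 (edgeR adjusted p = 1.6e-08). Lower in CD45+ cells of 66cl4 tumours were the ferroxidase hephaestin, Heph (-4.31), and the metalloreductases Steap2 (-4.30) and Steap1 (-4.18), relatives of Steap4. In 67NR tumours Bdh2 (-2.34), the endocytic receptor Lrp1 (-2.33) and Steap2 (-2.23) were lower in CD45+ cells. Several of these genes were called in the same direction in the other tumour type. These were Trf (4.10), Heph (-2.16) and Steap1 (-2.155) in 67NR and Bdh2 (-3.59) in 66cl4 tumours. Lrp1 (-0.085) and Hfe (0.25) were not called in 66cl4 tumours. The test of the difference between gates passed for 27 of the 48 genes, 12 with a higher and 15 with a lower tumour effect in CD45+ cells, against 43.1% of all genes.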

How the data were processed

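RNA of sorted CD45+ and CD45- cells was sequenced single-read from SENSE mRNA-Seq V2 libraries. The authors trimmed reads with fastp, quantified transcripts with Salmon 1.3.0 and summed them to genes with tximport; their methods name a human build for the transcripts, although the gene identifiers are mouse. The deposited values are estimated counts, not normalised, and were rounded to whole numbers here. Groups came from sample titles. The members and gene lists were chosen with earlier results of these data known. Genes were filtered with filterByExpr (minimum count 10, total 15), normalised by TMM and tested with edgeR 4.0.16 (quasi-likelihood, Benjamini-Hochberg over all genes tested). A gene was called if its adjusted p was under 0.05 and its log2 fold change above 1 in either direction, and the difference between gates at an adjusted p under 0.05. Each comparison used its own 10 libraries, and the difference between gates all 20. Scara5 did not pass the filter between CD45+ cells.

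Named were the members and, from the wider list, the 3 genes per comparison and direction with the largest called change, no overlap between groups and a mean of at least 10 counts. TPM used median protein-coding transcript lengths of GENCODE M21, and 1291 genes holding 2.58% of counts had no length. CD45+ and CD45- libraries of 1 tumour share the animal; their deviations from the group means correlated at -0.00142 to 0.303. Libraries of different tumour types share only a number. Animals are separate, so p-values measure the spread between animals of 1 experiment. Alternatives were DESeq2 1.42.0, RLE factors, other filters, all 20 libraries in the fit, the adjusted p alone, an animal block, and leaving out libraries. The scripts were tested on simulated data. R 4.3.3 and Python were used. The genes most like Scara5 are not reported here.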

Additional observations from a re-analysis of the deposited data

Results flagged for a closer look

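In 44 sets of 5 libraries (10 genes and the total count in 4 groups), Dixon's 95% limit marked 1 library as standing apart in 2 sets, and chance alone marks about 1 in 20, or 2.2 sets. Steap4 was at 985 normalised counts in CD45+ cells of 67NR animal 1, and at 66.9 to 303 in the other 4. CD45- cells of 67NR animal 7 gave 16917109 counts, and the other 4 gave 21199064 to 22180348.

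The effect of the tumour type (66cl4 against 67NR) differed between CD45+ and CD45- cells for 7 members by the edgeR interaction test. On the log2 scale, CD45+ minus CD45-, the difference was -2.42 for Tfrc, 2.26 for Slc11a1, 1.42 for Slc11a2, -2.88 for Slc40a1, -1.08 for Ftl1, -3.02 for Cp and 3.62 for Steap4.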

How the results depend on the processing

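Between CD45- cells the count of members called was 8 to 9 when each library was left out in turn, and, of 9 members without Scara5, 6 in every such fit of the gates of 66cl4 tumours. It was 6 to 7 for 67NR gates and 7 to 9 for the difference between gates. Between CD45+ cells the 1 call became 0 without 66cl4 animals 5 and 6, and 0 to 3 when each library was left out: 0 without 66cl4 animal 5 and 3 without 67NR animal 1, where Slc40a1 and Steap4 were added. With the adjusted p alone, the wider list had 12 calls between CD45+ cells, 36 between CD45- cells, 34 between the gates of 66cl4 and 26 of 67NR tumours, and all genes had 3259, 9999, 10892 and 10143. The sign turned for values near 0 that were not called: Ftl1 between the gates of 66cl4 tumours was -0.10 without animals 5 and 6 and -0.076 to 0.185 when each library was left out, and Fth1 in 67NR tumours was -0.009 to 0.23. Of the other values of named genes, 33 gained and 12 lost a call and 1213 kept their side of the threshold; all 510 ratios of mean levels moved by less than 1 SD.

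With the animal as a replicate block the gates of both tumour types had 6 calls as before, and the difference between gates had 8, since Hmox1 was added. Tumour types share only animal numbers; with these as a block, the CD45+ comparison still had 1 call, but Steap4 (1.96) in place of Slc11a1 (0.98), and the CD45- comparison 9. The exact permutation test planned for genes left out by the filter on low counts was not run, because Scara5 between CD45+ cells, the contrast it was picked on, was the 1 member left out. Depth limits Scara5 in 67NR CD45+ cells, where 3 counts are 3.05 to 4.68 normalised counts.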

Other observations

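Among the genes that sense iron, named here after their values were seen, the regulatory protein Ireb2 had group means of 1556 to 1718 normalised counts and passed the test in none of the 4 comparisons (edgeR adjusted p 0.259 to 0.766). Aco1, the other regulatory protein, was called in none of them, with absolute log2 fold changes of at most 0.29. It did pass the test, under the 2-fold limit, between CD45- cells (-0.29, edgeR adjusted p = 0.00582). The same held between the gates of 66cl4 tumours (0.29, edgeR adjusted p = 0.0286). Between CD45+ cells (edgeR adjusted p = 0.271) and between the gates of 67NR tumours (0.0919) it did not pass. Fbxl5, which targets both regulatory proteins for degradation when iron is plentiful, had 2373 to 3944 normalised counts in 66cl4 CD45+ cells and 721 to 2390 in 67NR CD45+ cells (log2 fold change 1.20, edgeR adjusted p = 0.0134). It was higher in CD45+ than in CD45- cells of 66cl4 tumours by 1.95 (edgeR adjusted p = 4.97e-08). Ncoa4, which carries ferritin to the lysosome, had a tumour effect that was lower in CD45+ than in CD45- cells by 0.75 on the log2 scale (edgeR interaction adjusted p = 0.000185). Hepcidin, Hamp, the hormone that removes ferroportin, had at most 2.78 normalised counts in any library.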
